A study of Danio rerio with 2 samples.

Results

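Chromosome 9 of the zebrafish embryo at 4 h post-fertilization (hpf) carried 499 of the 20243 RNA polymerase II (Pol II) peaks in the list, or 2.47%. Its peaks were chosen by chromosome alone, and the chromosome was chosen by its peak count per Mb, the lowest of any assembled chromosome. That low density is therefore given as a description and not as a finding. The comparison below asks which kinds of peak were fewer and where along the chromosome. The 23 other assembled chromosomes, with 16219 peaks, served as the background, and chromosome 4, at 39.2 peaks per Mb, was left out.

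The series held 2 samples of untreated wild-type Tübingen embryos at 4 hpf, namely Pol II chromatin immunoprecipitation sequencing (ChIP-seq) with antibody 8WG16 and the input chromatin. The protocol pooled embryos, so all embryonic cell types contributed and no cell type can be assigned to a peak. The values come from 1 Pol II peak list, called jointly on 2 biological replicates and 1 input. No replicate value was used, so no difference below has a replicate check and no test between chromosomes was made. Read depth is not stated in the list. Intervals are 95% intervals for counting error alone, and neighbouring peaks are not independent, so the true uncertainty is larger.

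Pol II transcribes the protein-coding genes and many noncoding RNAs. Before zygotic genome activation (ZGA) the zebrafish genome is largely silent and the embryo lives on maternal RNA, and at about the stage sampled here transcription of the embryo's own genes has begun. Antibody 8WG16 binds the repeated heptad of the C-terminal domain of the largest Pol II subunit. A narrow Pol II peak often marks a promoter with initiating or paused polymerase, and a broad one often marks polymerase spread over a transcribed gene. The list carries no gene names, and the gene table at hand is of another genome build (GRCz12tu) than the peaks (GRCz10, named Zv10 by the study). Regions are therefore given by GRCz10 position, counted from 1, with no gene and no sequence, and none of the assignments above was made for a single peak.

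Chromosome 9 had 8.80 peaks per Mb (exact Poisson interval 8.05 to 9.61) over a span of 56.7 Mb, taken as the end of its last peak. The 23 others together had 13.5 peaks per Mb over 1205 Mb. At their density 763 peaks were expected on chromosome 9, so that 264 were missing and the ratio of observed to expected peaks was 0.654 (exact binomial interval 0.597 to 0.715). Next in the order of density came chromosome 18 at 9.64 peaks per Mb (8.80 to 10.5), chromosome 24 at 10.1 (9.19 to 11.1) and chromosome 12 at 10.9 (9.97 to 11.8). The intervals of chromosomes 18 and 24 overlapped that of chromosome 9, and the interval of chromosome 12 did not.

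**Figure D1:**
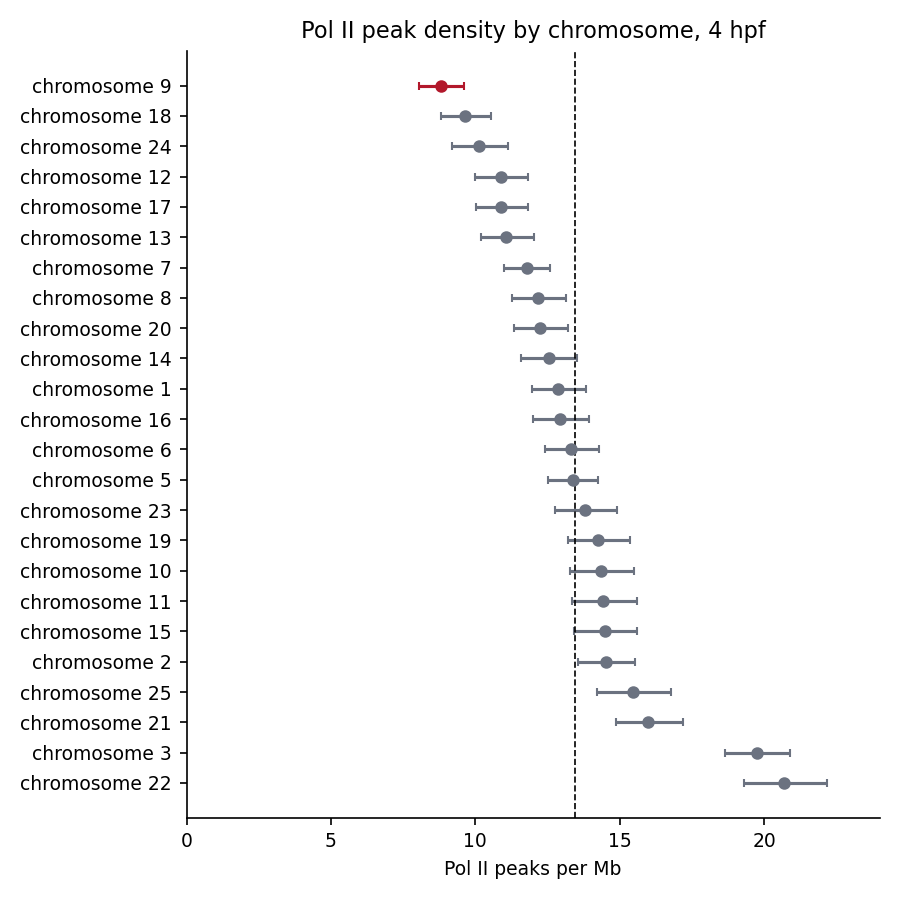
Pol II peaks per Mb (x axis) for chromosome 9 (red) and the 23 other assembled chromosomes (grey), ordered by density, with chromosome 4 left out. Points are peak counts over the span to the last peak, bars are exact Poisson 95% intervals, and the dashed line is the pooled density of the 23 others. Chromosome 9 lies at 8.80 and its interval overlaps those of chromosomes 18 and 24.

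The deficit was deeper in bound sequence than in peak number. Peaks covered 1.43% of chromosome 9 and 2.58% of the 23 others, a ratio of 0.554. The peaks of chromosome 9 were narrower, with a median width of 720 bp (quartiles 455 and 1460 bp) against 870 bp (490 and 1830 bp) on the others. No other chromosome of the 23 had a median below 745 bp, the value of chromosome 21. Mean width was 1622 bp on chromosome 9 and 1913 bp on the others.

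Every width class was below expectation, and the classes of 1 kb or more lay lowest. Peaks under 500 bp numbered 157 where 196 were expected (ratio 0.80, interval 0.678 to 0.939), and those of 500 bp to 1 kb numbered 162 where 227 were expected (0.714, 0.607 to 0.836). Peaks of 1 to 2 kb numbered 81 where 166 were expected (0.489, 0.387 to 0.609). This middle class alone made up 32.1% of the missing peaks, against 21.7% of the peaks of the others. Peaks of 2 to 5 kb had a ratio of 0.599 (0.461 to 0.766) and those of 5 to 10 kb a ratio of 0.581 (0.374 to 0.864). Only 9 peaks reached 10 kb where 23.01 were expected, a ratio of 0.391 (0.178 to 0.749). They made up 1.80% of the peaks of chromosome 9 (0.828 to 3.40), against 3.01% on the others, a value inside that interval. The intervals of all classes of 2 kb or more include 0.654, the ratio of all peaks. They therefore do not set these classes apart from the whole, while the interval for 1 to 2 kb lies below 0.654. Split at 1 kb, the narrower peaks had a ratio of 0.754 (0.672 to 0.843) and the wider ones 0.529 (0.454 to 0.613). The wider ones held 60.7% of the missing peaks, against 44.6% of the peaks of the others.

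Broad domains, taken as peaks of 5 kb or more, numbered 34 on chromosome 9, where 66.0 were expected. They made up 6.81% of its peaks (exact Clopper-Pearson interval 4.76 to 9.39), against 8.65% on the others, a value inside that interval. The density of broad domains was 0.600 per Mb, with the 23 others between 0.667 on chromosome 18 and 1.77 on chromosome 19. The 34 domains lay in 32 separate clusters and held 40.2% of the sequence covered on chromosome 9, against 45.4% on the others. In share of peaks, chromosome 9 stood among the low values without being lowest, since 3 of the 23 others had a smaller share of broad peaks.

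Weak and strong peaks were both fewer. The score deposited for each peak is taken here to be the peak's best −log10 q multiplied by 10, a measure of significance and not of enrichment, although the list does not state this. With classes cut at the quartiles of the 23 others (scores of 46, 77 and 177), the lowest class had a ratio of 0.780 (0.656 to 0.922), the next 0.589 (0.485 to 0.708), the one above it 0.585 (0.480 to 0.706) and the highest 0.667 (0.555 to 0.796). The classes on either side of the median held 30.6% and 29.9% of the missing peaks, against 25.8% and 24.9% of the peaks of the others. The median score was 72 on chromosome 9 and 77 on the others, and the upper quartiles were 182 and 177. Peaks in the highest class made up 25.7% of the peaks of chromosome 9 (21.9 to 29.7) and 25.1% of those of the others, a value inside that interval.

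Crossed with score, peaks of 1 kb or more had the lower ratios at either strength, while the missing peaks were shared among all 4 classes. Peaks of 1 kb or more that scored below 77 numbered 33 where 72.0 were expected (ratio 0.459, 0.315 to 0.647). Those of 1 kb or more that scored 77 or higher numbered 147 where 268 were expected (0.548, 0.462 to 0.645). Peaks under 1 kb had ratios of 0.733 (0.640 to 0.837) below that score and 0.812 (0.652 to 0.9996) at or above it. Of the missing peaks, wide peaks of higher score held 45.9%, short peaks of lower score 31.3%, wide peaks of lower score 14.7% and short peaks of higher score 8.08%. In the same order, these classes made up 35.2%, 40.6%, 9.43% and 14.9% of the peaks of the others. The 2 wide classes thus held more of the missing peaks than their share of peaks, and the short ones less.

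Among the 1000 highest scoring peaks of the list, 22 lay on chromosome 9, or 4.41% of its peaks (2.78 to 6.60), against 5.05% of the peaks of the others. Their density was 0.571 times that of the others (0.356 to 0.870). They were spread over 20 clusters, and 14 of the 22 were 5 kb or wider. Their median width was 7735 bp, against 6180 bp on the others. Of the 100 highest peaks of the list, 1 lay on chromosome 9, which held 2.47% of all peaks in the list. A count of 1 is too small to compare with that share.

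The strongest peak of chromosome 9 scored 8793 and ranked 100 in the list (30547071 to 30561580, 14.51 kb wide). The next scored 5929 (53889551 to 53898780, 9.23 kb). Both had a single neighbour within reach, 3.09 and 3.57 kb away. The 10 highest scores on the chromosome ended at 2915, and 6 of the 10 peaks were 5 kb or wider. Of the 10, 6 were alone or in a pair, a share not computed for the strongest peaks of the others. None lay in a cluster of 10 or more. Only 5.61% of all peaks of the chromosome lay in such clusters, so 10 peaks are too few to show a lack.

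An exception was a compact group near the start of the chromosome (1313111 to 1337200), whose 8 peaks covered 10.4 of 24.1 kb. It held 3 of the 10 highest peaks, with scores of 5884 (1327541 to 1330400), 5336 (1315211 to 1317990) and 4319 (1323031 to 1324960). These were 2860, 2780 and 1930 bp wide, all under 3 kb, in contrast to the other 7 of the 10, of which the narrowest was 4.80 kb. The remaining 5 strong peaks scored 3775 (18894201 to 18904160, isolated, with the nearest peak 86.1 kb away), 3687 (24014311 to 24020850), 3258 (10721301 to 10726100), 3037 (2863221 to 2886940) and 2915 (426521 to 439970).

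The 5 broadest peaks included 3 of the 10 strongest. The broadest spanned 23.72 kb (2863221 to 2886940) and scored 3037, and the others among the strongest were the 14.51-kb peak described above and a 13.45-kb peak (426521 to 439970). The second broadest, 17.84 kb (32346951 to 32364790), scored only 498 and lay in a cluster of 6 peaks. The third broadest, 16.83 kb (46598801 to 46615630), scored 2691 and was isolated, with its nearest neighbour 129 kb away. Breadth and score therefore did not rank these domains in the same order. Across all 499 peaks Spearman's rho of score and width was 0.631, against 0.617 to 0.758 within each of the 23 others. Bounds and score come from the same call, so this is a description only.

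In many broad domains the summit lay at an edge. Of the 34 peaks of 5 kb or more, 18 (52.9%, interval 35.1 to 70.2) had their summit within the outer 10% of their width at either side, against 39.8% on the 23 others, where single chromosomes ranged from 28.6% to 55.1%. An even spread of summits over the width would give 20%. The broadest peak had its summit at 96.4% of its width and the peak at 426521 at 3.16% of it. Peaks of 1 to 2 kb had such summits in 2 of 81 cases (2.47%, 0.300 to 8.64), against 2.33% on the others. The interval for broad peaks of chromosome 9 includes the share on the others, and 22 of the 23 others had a lower share.

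**Figure D2:**
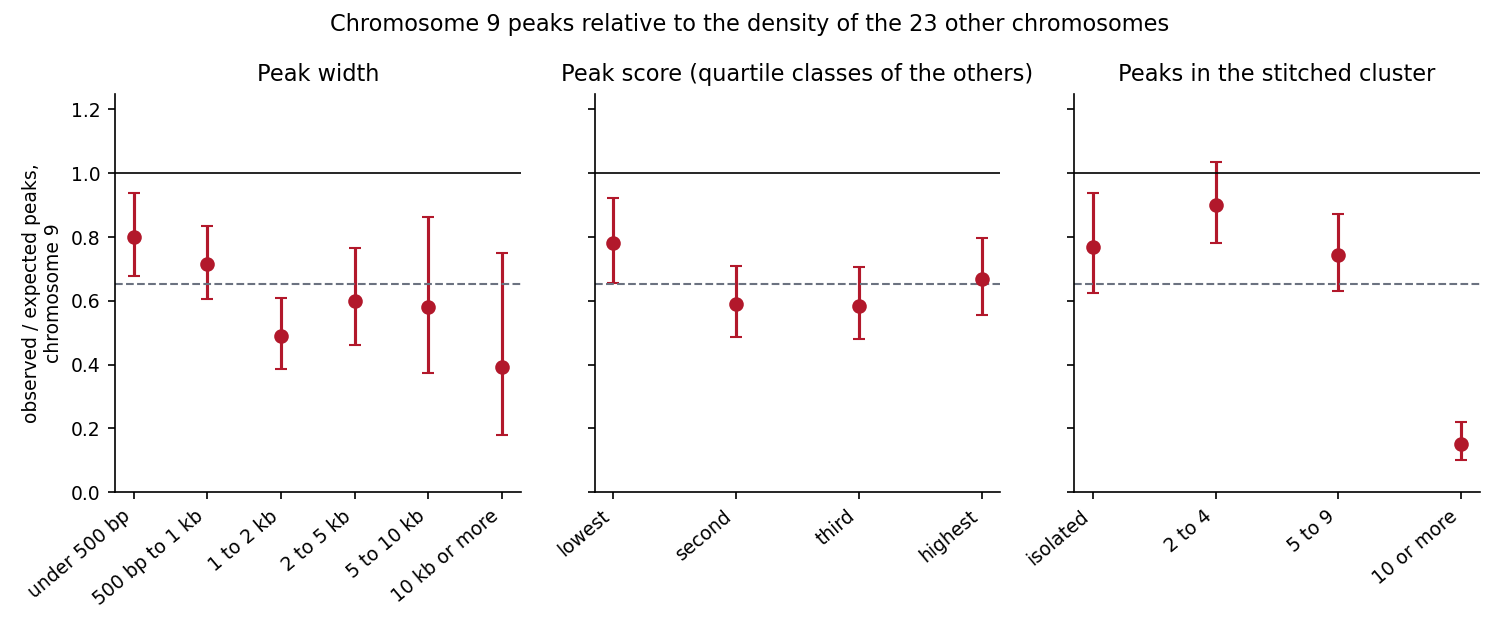
Ratio of observed to expected peaks on chromosome 9 (y axis) by peak width, by score class and by number of peaks in the stitched cluster, where expected numbers come from the density of the 23 other chromosomes. Bars are exact binomial 95% intervals, the solid line marks 1 and the dashed line the ratio of all peaks, 0.654. Peaks in clusters of 10 or more stand at 0.152, below every other class.

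Among classes of cluster size at a stitching gap of 10 kb, that of 10 or more peaks had the largest share of the missing peaks. These classes are not fixed, since a cluster with fewer peaks counts in a smaller class. The shares by class therefore do not show where peaks were lost. Peaks were stitched into a cluster where the space between neighbours was 10 kb or less, and a lone peak counted as isolated. With this gap and no peaks merged, clusters of 10 or more peaks held 28 peaks on chromosome 9 where 184 were expected. The ratio was 0.152 (0.101 to 0.220), and these clusters accounted for 59.2% of the missing peaks. They held 5.61% of the peaks of chromosome 9, against 24.2% of those of the others, among which single chromosomes ranged from 11.8% on chromosome 19 to 34.2% on chromosome 25. Counted as clusters, which are nearer to independent than peaks, there were 2 on chromosome 9 where 13.4 were expected, a ratio of 0.149 (0.018 to 0.544). Each of the 23 others had between 6 and 26. For peaks in such clusters the ratio was 0.211 with a gap of 5 kb and 0.185 with peaks within 500 bp merged. On the others such clusters then held only 16.8% and 11.7% of peaks. The share of missing peaks was not computed for these settings, so the 59.2% holds for the 10-kb gap without merging only. At that gap the deficits by width and by cluster size overlapped. Peaks of 1 kb or more in clusters of 10 or more numbered 8 where 89.2 were expected (0.090, 0.039 to 0.177) and held 30.7% of the missing peaks. On the others they made up 11.7% of peaks. Outside such clusters, peaks under 1 kb had a ratio of 0.912 (0.810 to 1.02), those of 1 to 2 kb 0.632 (0.497 to 0.794) and those of 2 kb or more 0.734 (0.592 to 0.899).

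Smaller groups came closer to expectation. Isolated peaks numbered 102 where 133 were expected (0.769, 0.625 to 0.937), peaks in clusters of 2 to 4 numbered 213 where 236 were expected (0.902, 0.782 to 1.03), and peaks in clusters of 5 to 9 numbered 156 where 210 were expected (0.743, 0.630 to 0.872). The interval for clusters of 2 to 4 includes 1. Isolated peaks made up 20.4% of peaks (17.0 to 24.2), against 17.4% on the others. With clusters of 10 or more left out on every chromosome, chromosome 9 had 8.31 peaks per Mb and the others 10.2, a ratio of 0.814 (0.741 to 0.892). On that measure 2 of the 23 others fell below it, chromosome 18 at 7.62 and chromosome 24 at 7.81.

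Cluster size follows in part from density, which chose this chromosome, since at a fixed stitching gap sparser peaks form smaller clusters. With the gap scaled to each chromosome's density, which made it 15.1 kb on chromosome 9, clusters of 10 or more numbered 3 and held 8.62% of its peaks, against 23.2% on the others, and none of the 23 others had a smaller share. With this gap the share of isolated peaks was 17.4% on chromosome 9 and 18.0% on the others. The share of peaks in dense clusters was the lowest under both gaps, and the higher share of isolated peaks was seen only with the fixed gap. The limit of 10 peaks stayed the same, and the gap was scaled by the density that chose this chromosome. The lowest share under the scaled gap therefore does not show a trait apart from low density. With peaks within 500 bp merged first, chromosome 9 had 1 cluster of 10 or more with 3.24% of its peaks, against 11.7% on the others, and 2 of the 23 others had a smaller share.

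There were 207 clusters on chromosome 9, isolated peaks included, or 3.65 per Mb against 4.72 on the others, and they held 2.41 peaks each, against 2.85. In terms of the logarithm of the density ratio, fewer clusters per Mb (ratio 0.774) contributed 60.4% and fewer peaks per cluster (ratio 0.845) 39.6%. This split holds for the fixed gap only. With the scaled gap the ratio of peaks per cluster was 0.939, and 3 of the 23 others had fewer peaks per cluster. Inside clusters, neighbours lay a median of 810 bp apart on chromosome 9 (quartiles 400 and 2600 bp) and 870 bp apart on the others (410 and 2340 bp). Both sets of spaces end at 10 kb by the definition of a cluster, so part of their overlap is built in. Between clusters the median space was 147 kb, against 109 kb.

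The largest cluster on chromosome 9 had 16 peaks over 51.2 kb (33972201 to 34023370), and on 19 of the 23 others the largest had 20 or more. It covered 22.9 kb, and its scores ran between 27 and 475 with a median of 49. The other cluster of 10 or more had 12 peaks over 28.7 kb (43382971 to 43411630), with scores between 26 and 617 and again a median of 49. Neither held a peak among the 1000 highest of the list. Of the 207 clusters 0 had 20 or more peaks. That count allows a share of up to 1.45%, and the share on the others, 0.580%, lies under this limit.

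Below these came 4 clusters of 9 peaks, of which the rule for named regions takes the 3 with the most covered sequence. They lay at 29874001 to 29889260 (11.1 of 15.3 kb covered), 22969931 to 22992390 (9.13 of 22.5 kb) and 25535031 to 25555760 (7.58 of 20.7 kb). Their highest scores were 159, 196 and 308 and their median scores 56, 35 and 45. All 5 of the largest clusters thus had a median score below the 72 of the whole chromosome. Over all its clusters of 10 or more the median score was 49, against 65 on the others.

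Most of the chromosome was sparser than the median of the others, but the missing peaks were unevenly spread. The 10-Mb bin from 20 to 30 Mb held 2.89% of them and that from 40 to 50 Mb held 26.7%. In bins of 10 Mb, the first held 88 peaks (exact Poisson interval 7.06 to 10.8 per Mb) and the second, to 20 Mb, 70 peaks (5.46 to 8.84 per Mb). The bin from 20 to 30 Mb held 127 peaks (10.6 to 15.1 per Mb) and that from 30 to 40 Mb 100 peaks (8.14 to 12.2 per Mb). The bin from 40 to 50 Mb was the sparsest, with 64 peaks or 6.40 per Mb (4.93 to 8.17). The last, incomplete bin to 56.7 Mb had 7.47 per Mb (5.55 to 9.85). The 109 full bins of the others ranged from 5.90 to 41.4 peaks per Mb with a median of 12.5. Only the bin from 20 to 30 Mb reached that median and lay above 50.5% of those bins, while the sparsest bin, from 40 to 50 Mb, lay above 2.75% of them. Of 20 equal segments of the span, 17 lay below the median of the corresponding segments of the others and 11 below their lower quartile. The chromosome was chosen for its low density, so these counts are in part fixed by that choice and serve as a description.

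Stretches chosen after the values were seen showed densities near those of the others between sparser ones. The first 5 Mb had 13.4 peaks per Mb (10.4 to 17.0), near the median of 13.6 in the first 5 Mb of the others. The next 10 Mb, from 5 to 15 Mb, held 44 peaks or 4.40 per Mb (3.20 to 5.91), and that stretch accounted for 34.3% of the missing peaks with 17.6% of the span. Its sparsity was not extreme for a sparsest window: in windows of 10 Mb at 1-Mb steps, 3 of the 23 others had a lower minimum, down to 3.30 on chromosome 12. From 20 to 28 Mb density returned to 13.4 peaks per Mb. From 40 Mb to the end it was 6.83 (5.63 to 8.20), which accounted for another 41.9% of the missing peaks with 29.4% of the span.

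The kind of peak varied within the sparse stretches. From 5 to 10 Mb the 21 peaks had medians of 51 in score and 610 bp in width, and from 10 to 15 Mb the 23 peaks had medians of 162 in score and 1370 bp in width. Isolated peaks made up 29.5% of those from 5 to 15 Mb. Beyond 40 Mb the median score was 62.5 and the median width 580 bp, and 25.4% were isolated. In the stretch from 20 to 40 Mb, which held 45.5% of all peaks of the chromosome and 17 of its 34 broad domains, 15.9% were isolated. The shares rest on 44, 114 and 227 peaks, and none of these differences was tested. At a fixed gap sparser peaks are more often isolated, and the stretches were chosen with their density known. The shares of isolated peaks therefore follow in part from that choice.

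**Figure D3:**
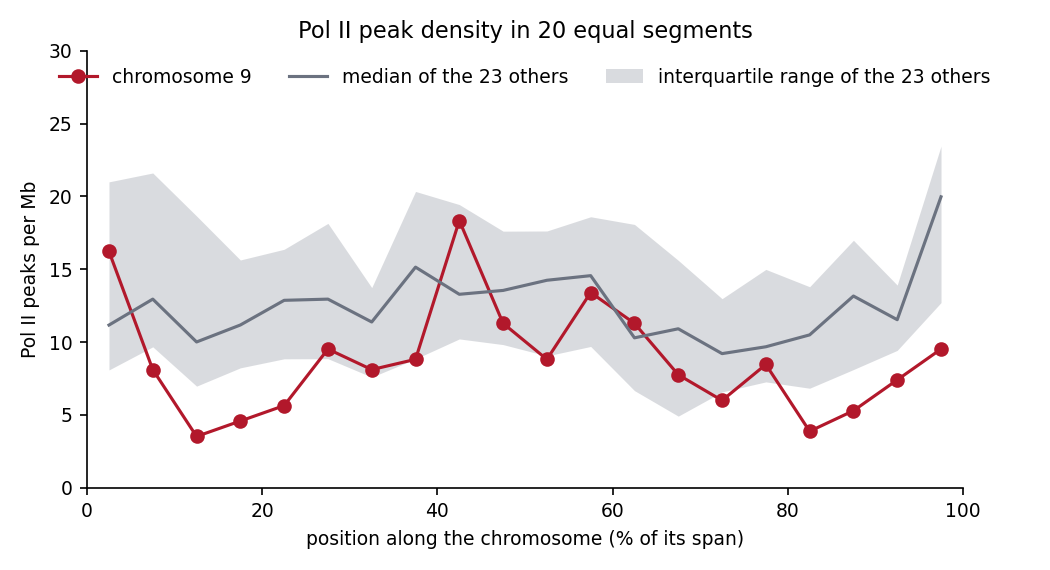
Pol II peaks per Mb (y axis) in 20 equal segments of the span of each chromosome (x axis, percent of the span), for chromosome 9 (red) and, in grey, the median and interquartile range of the 23 other chromosomes. Chromosome 9, chosen for its low density, lies below the median in 17 segments. Its first segment, at 16.2 peaks per Mb, lies above the median of 11.2. Low stretches lie between this start and a denser middle, and again beyond the middle.

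The bins of chromosome 9 spanned a smaller range of peak numbers than the pooled bins of the others. A range widens with the number of bins, and this chromosome was chosen as the sparsest, so the smaller range is a description only. In bins of 1 Mb its peak number ranged from 0 to 24 with a median of 8, and that of the others from 0 to 122 with a median of 11. The densest was the first, from the start to 1 Mb, with 24 peaks. On the others 158 of 1194 bins (13.2%) held 25 peaks or more, a limit set just above the densest bin of chromosome 9 after the values were seen, so that the absence of such bins among its 56 is a description that follows from the choice of limit. Bins of 5 to 9 peaks made up 33.9% on chromosome 9 and 22.3% on the others. The densest 10-Mb window of chromosome 9, at 12.9 peaks per Mb, was below the densest window of each of the 23 others, which were 14.6 or higher.

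**Figure D4:**
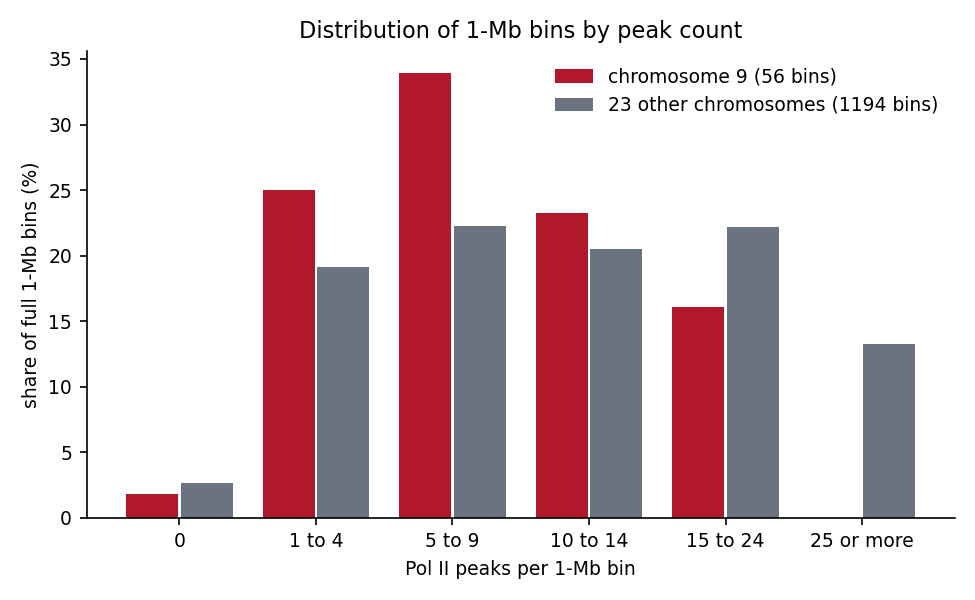
Share of full 1-Mb bins (y axis, percent) by the number of Pol II peaks they hold (x axis), for chromosome 9 (red, 56 bins) and the 23 other chromosomes (grey, 1194 bins). Bins of 5 to 9 peaks make up 33.9% on chromosome 9 and 22.3% on the others, and no bin of chromosome 9 holds 25 or more.

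Empty bins and spaces over 1 Mb were near the frequency on the others, and spaces over 500 kb took up more of the span. Of the 56 bins 1 was empty (1.79%), against 32 of 1194 (2.68%) on the others. Chromosome 9 had 5 peak-free spaces longer than 1 Mb where 5.27 were expected (ratio 0.949, 0.302 to 2.28), and they took up 11.3% of its span, against 12.2% on the others. Spaces of more than 500 kb numbered 36 where 27.9 were expected (1.29, 0.895 to 1.81) and took up 51.4% of the span, against 39.4% on the others, of which 22 of the 23 had a lower share. Fewer peaks leave longer spaces, so this share follows in part from the density that chose the chromosome. The largest losses in number by spacing were among neighbours under 1 kb apart, with 159 spaces where 266 were expected (0.597, 0.507 to 0.699), and 1 to 2 kb apart, with 41 where 88.6 were expected (0.463, 0.331 to 0.630). Spaces under 1 kb were also the largest class, with 31.9% of spaces on chromosome 9 (27.9 to 36.2) and 34.9% on the others. The loss was not limited to close neighbours, since spaces of 10 to 50 kb numbered 46 where 83.4 were expected (0.552, 0.402 to 0.739). Spaces of 200 kb to 1 Mb numbered 80, near the 82.5 expected.

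The longest space without a peak was 1.66 Mb (41658761 to 43318480). On its far side lay a lone peak of 340 bp, and the next group was the cluster of 12 peaks described above. The next 4 measured 1.49 Mb (7500791 to 8990380), 1.13 Mb (17575511 to 18703940), 1.09 Mb (55539431 to 56633090) and 1.02 Mb (39693861 to 40713890). The second ended at a broad peak of 6400 bp with a score of 1337, and the third lay between lone peaks of 300 bp each.

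Compared with chromosomes 18, 24 and 12, the next in density, chromosome 9 had fewer of its peaks in dense clusters and less of its span in spaces over 1 Mb. Its 5 such spaces took up 11.3% of its span, and its 2 clusters of 10 or more held 5.61% of its peaks. Chromosome 18 had 12 spaces of more than 1 Mb, which took up 34.1% of its span, and its 8 clusters of 10 or more held 21.0% of its peaks. On chromosome 24 such spaces took up 19.7% and such clusters held 22.9%, and on chromosome 12 the values were 20.7% and 22.1%. Chromosome 17, which followed at 10.9 peaks per Mb, came closer, with 13.4% and 18.4%. Over the 23 others the median share of span in spaces over 1 Mb was 10.2%, and 13 had a lower share than chromosome 9. Its share in such spaces was therefore low only beside these sparse chromosomes. At a limit of 500 kb the order was another, since such spaces took up 51.4% of chromosome 9, against 51.7% of chromosome 18, 45.4% of chromosome 24 and 48.9% of chromosome 12. These differences have no test, since each chromosome is 1 observation in a single list.

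**Figure D5:**
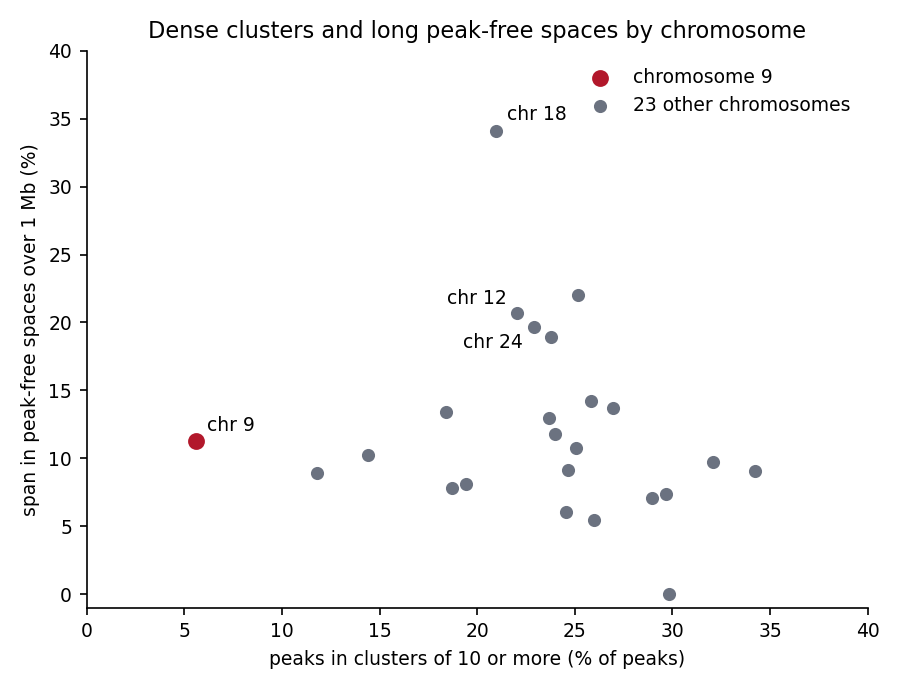
Share of span in peak-free spaces of more than 1 Mb (y axis, percent) against share of peaks in clusters of 10 or more (x axis, percent), with 1 point per chromosome, chromosome 9 in red and the 23 others in grey. Chromosome 9 lies at 11.3% on the y axis and 5.61% on the x axis, and chromosomes 18, 12 and 24, the next in density, lie at 19.7% or more and between 21.0% and 22.9%.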

How the data were processed

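Reads of 50 bp were aligned to Zv10 (GRCz10) with Novoalign 2.8 in the study's methods, which set reads of several equal positions at a random one. SAMtools merged technical replicates, and a multi-replicate wrapper of MACS2 called peaks on 2 biological replicates and 1 input at a threshold of 2. The authors deposited 1 list with a whole-number score per peak, lowest 20, read here as 10 times the highest −log10 q. Other deposited columns hold peak positions, and those for fold, p and q hold 0 throughout and were not used. The options used on duplicate reads, repeats shared by random placement, and assembly gaps could each alter peak numbers, and their part in the density of chromosome 9 was not tested. An assembly gap or unmappable stretch counts as span.

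Peak density was computed with Python 3.11.15, pandas 2.3.3 and scipy 1.17.1 from peak counts and the end of the last peak. Functions were tested on simulated data. Expected numbers used the density of the 23 other assembled chromosomes. Clusters were stitched at 10 kb. Named regions are the 10 highest scoring peaks, the 5 broadest, the 5 clusters with the most peaks, the 5 longest spaces, the sparsest and densest full 10-Mb bins and the densest 1-Mb bin. The members and lists were chosen with earlier results of these data known. The classes and stretches were set in the same knowledge. No genome sequence was used.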

Additional observations from a re-analysis of the deposited data

How the results depend on the processing

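A ratio of observed to expected peaks below 1 was fixed by the choice of the sparsest chromosome, so only its size is of interest. It was 0.774 with stitched clusters in place of peaks, 0.554 with covered bases, 0.587 with chromosome 4 in the background and 0.814 without clusters of 10 or more peaks, an alternative chosen after the data were seen. For peaks in clusters of 10 or more it was 0.231 with a stitching gap of 20 kb, 0.243 with the gap scaled to density (added after the data were seen) and 0 with the top 25% of peaks by score, where the 23 others together had only 10 such clusters, so that this 0 carries no information. It was 0.185 with peaks within 500 bp merged, where 2 of the 23 others had a smaller share of peaks in such clusters. The share of isolated peaks relative to the others was 0.970 with the scaled gap, against 1.18 as reported. The share of strong peaks relative to the others was 0.860 with the top 10% of scores and 1.02 as reported. The share of broad peaks stayed below that of the others under all 6 alternatives (0.598 to 0.878 of it). These alternatives cut largely the same peaks again, and the interval of each included 1, as did that of the share as reported. The sparsest bin relative to the median bin was 0.339 with 5-Mb bins, against 0.512. Spaces over 2 Mb numbered 0 (ratio 0), where 0.235 were expected. The causes were not tested. No paired analysis was possible because both replicates entered a joint peak call, so no replicate could be left out either. The number of peaks, and for dense clusters the count of 2, limits the precision.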
